A study of Mus musculus with 5 samples.

Results

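Genes of whey proteins and of lactose synthesis were compared between mammary glands of 2 control mice and 3 mice with an induced cyclin D1 transgene, with 1 Affymetrix whole-transcript array per mouse. The members are Wap, Lalba, B4galt1, Glycam1, Wfdc18 and Ugp2, named by gene symbol, 6 of the genes on the array. Where a symbol had several probe sets, the brightest by mean was used. Of the 6 genes, 5 had a probe set annotated to them alone and are among the 19938 genes tested; the probe set of Lalba is also annotated to Trip12 and was not assigned. All mice were FvB/N females, 8 weeks old per the labels. The controls carried the MMTV-rtTA transgene alone, and the other group carried rtTA together with the cyclin D1 (CCND1) transgene. MMTV-rtTA places a doxycycline-dependent transactivator under the promoter of the mouse mammary tumour virus, used to drive genes in epithelium of the gland. Doxycycline was given for 7 days per the labels' treatment text, which speaks of a "KE mutant" of CCND1 and leaves unsaid whether controls had the drug. RNA came from whole gland, so a higher value from more secretory cells and one from more RNA per cell cannot be told apart.

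Whey is the soluble fraction of milk. In rodents it holds whey acidic protein, the product of Wap, and alpha-lactalbumin, the product of Lalba. Alpha-lactalbumin binds the Golgi galactosyltransferase encoded by B4galt1, and this pair, lactose synthase, joins UDP-galactose to glucose. Ugp2 encodes the pyrophosphorylase that makes UDP-glucose, from which UDP-galactose is formed. Lactose draws water into the alveolar lumen and so sets the volume of milk. Wfdc18 encodes a small secreted protein with the cysteine-rich domain of whey acidic protein, and Glycam1 a mucin-like glycoprotein that is secreted into milk and also made by high endothelial venules of lymph nodes.

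The arrays of the groups differed in spread before any gene is considered. The SD across genes was 0.735 and 0.926 in control 1 and control 2 and 1.20 to 1.38 in the cyclin D1 arrays. In the brightest decile of genes by mean level, which holds all 5 measured members, the median log2 difference, cyclin D1 minus control, was 1.59 as deposited and 0.36 after the gene values of the 5 arrays had been quantile-normalized again ("renormalized"). Of all genes, 5.38% were called higher and 0.687% lower by limma at an adjusted p under 0.05, and 35.9% of the brightest decile were called higher. After renormalization 0.256% of all genes were called higher. The mean of the olfactory receptor genes, which the gland is not known to use, served as a rough floor on each array. It was 2.52 and 2.38 in controls 1 and 2 and 2.03, 1.97 and 2.24 in the cyclin D1 arrays, so that the floor itself was lower in the cyclin D1 group. No value of a measured member lay at or below it.

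Of the 5 measured members, 4 rose (Wfdc18, B4galt1, Glycam1 and Ugp2), and Wap had the highest difference without passing. The share called higher was 5.38% of all genes and 35.9% of the brightest decile. The median difference of the 5 was 3.96 on the log2 scale, beside -0.05 over all genes. In all 5 genes the 3 cyclin D1 values lay above both controls, as they did in 22.4% of all genes and 82.2% of the brightest decile. In all 5, control 1 was below control 2. After renormalization 0 of the 5 passed, and 0.256% of all genes were called higher. All 5 differences stayed positive, with a median of 2.46. The 3 cyclin D1 values then lay above both controls in 4 of the 5, all but Glycam1, as they did in 20.1% of all genes and 33.6% of the brightest decile. On the deposited scale 0 of all genes were called, higher or lower, without control 1, without cyclin D1 replicate 1 or without cyclin D1 replicate 2. At an unadjusted p under 0.05 limma held 4973, 3568 and 3491 genes in these fits, against 5244 with all arrays.

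**Figure D1:**
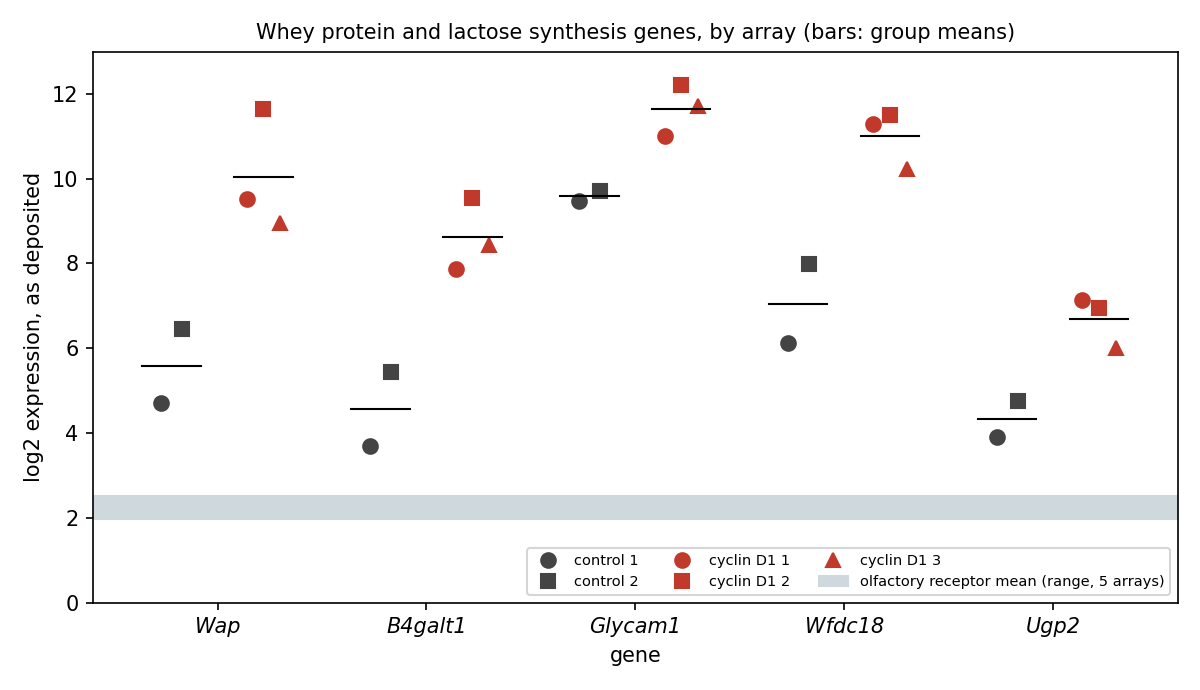
Log2 expression as deposited (vertical axis) of the 5 measured genes (horizontal axis) on each array, with controls in grey, cyclin D1 glands in red and bars for group means; the grey band is the range of the olfactory receptor mean over the arrays. All cyclin D1 points lie above both control points of the same gene, and Wap spans 8.95 to 11.6 within the cyclin D1 group.

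The letters before the start sites of 4 members, whose start regions differ in composition, are shown, and those of Lalba and Ugp2 are not. These 4 are not the 4 called, since Wap did not pass and Ugp2 did. The letters shown are the 250 bases before the RefSeq start in GRCm38.p6, 5′ to 3′ on the gene's strand: chr11:6638650-6638899 (minus strand) for Wap, chr11:83708754-83709003 (plus) for Wfdc18, chr15:103565082-103565331 (minus) for Glycam1 and chr4:40853985-40854234 (minus) for B4galt1. Capitals mark matches, on either strand, to any of 5 searched motifs.
Wap: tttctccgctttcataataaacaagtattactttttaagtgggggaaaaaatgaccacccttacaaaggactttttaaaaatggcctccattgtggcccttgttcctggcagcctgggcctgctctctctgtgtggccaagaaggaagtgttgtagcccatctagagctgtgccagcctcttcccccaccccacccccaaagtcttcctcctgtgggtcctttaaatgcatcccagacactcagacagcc
Wfdc18: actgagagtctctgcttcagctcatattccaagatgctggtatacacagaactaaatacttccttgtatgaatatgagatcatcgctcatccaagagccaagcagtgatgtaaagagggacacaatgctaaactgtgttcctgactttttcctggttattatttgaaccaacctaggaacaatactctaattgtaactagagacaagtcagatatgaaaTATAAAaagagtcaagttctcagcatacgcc
Glycam1: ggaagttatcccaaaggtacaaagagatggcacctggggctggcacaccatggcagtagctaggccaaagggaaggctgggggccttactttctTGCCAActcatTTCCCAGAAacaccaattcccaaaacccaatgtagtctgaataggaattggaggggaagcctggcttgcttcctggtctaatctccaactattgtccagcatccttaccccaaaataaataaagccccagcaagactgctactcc
B4galt1: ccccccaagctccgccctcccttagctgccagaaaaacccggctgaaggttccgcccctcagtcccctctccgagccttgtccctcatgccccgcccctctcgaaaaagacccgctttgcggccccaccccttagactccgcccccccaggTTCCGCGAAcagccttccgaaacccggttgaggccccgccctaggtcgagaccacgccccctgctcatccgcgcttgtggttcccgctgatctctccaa

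The motifs were TTCNNNGAA, the core bound by STAT proteins such as STAT5, TATAAA, the TATA box, TTGGCA, a core of the nuclear factor I family site, TGTTCT, a core of the glucocorticoid receptor site, and TTGCNNAA, a form of the C/EBP site. All 6 members were found in the RefSeq promoter table, with 7 windows, since Ugp2 has 2. TTCNNNGAA matched in the windows of Glycam1 (TTCCCAGAA, 145 bases before the start) and B4galt1 (TTCCGCGAA, 99 bases before), that is in 2 of 7, while 7.02% of 32851 windows of the same length hold it. TATAAA matched only in Wfdc18 among the 7 windows, 31 bases before the start, and in 12.4% of all windows. TTGGCA matched in Lalba, in Glycam1 on the minus strand and in the second window of Ugp2, against 12.3% of all windows. TTGCNNAA matched in 1 window, the second of Ugp2 (9.56% of all), and TGTTCT in 0 of the 7 (16.1% of all). The window of Wap held none of the 5 motifs. These windows were 38.4% G and C in Wfdc18, 49.6% in both Wap and Glycam1, 66.4% in B4galt1 and 64.0% and 73.6% in Ugp2, around a median of 52.4% over all windows. A match is a match of letters only, and windows further upstream were not searched.

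Among the whey proteins, Wap read 4.71 (control 1) and 6.46 (control 2) against 9.52, 11.6 and 8.95 in cyclin D1 replicates 1, 2 and 3. Cyclin D1 replicate 2 was the highest by a clear margin, control 1 the lowest, and the groups did not overlap. The means of 5.59 ± 1.24 (SD, n = 2) and 10.04 ± 1.42 (SD, n = 3) were 4.45 log2 units apart (SE 0.94, 95% interval 2.10 to 6.81, limma adjusted p = 0.0574). This is a 21.9-fold difference of the means, and the lowest cyclin D1 gland was 5.61-fold above the highest control. Wap had the fourth highest difference of all genes and did not pass. Renormalized, the difference was 3.04 (adjusted p = 0.165).

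Wfdc18 read 6.12 and 7.98 in controls 1 and 2, against 11.3, 11.5 and 10.2 in cyclin D1 replicates 1, 2 and 3. Cyclin D1 replicates 1 and 2 lay close together, replicate 3 lay lower, and the groups did not overlap. The gene rose by 3.96 log2 units (SE 0.66, 95% interval 2.31 to 5.61, limma adjusted p = 0.0356), a 15.5-fold rise, from 7.05 ± 1.31 (SD, n = 2) to 11.01 ± 0.69 (SD, n = 3). Renormalized it differed by 2.46 with an adjusted p = 0.0649. The call held without control 2 (adjusted p = 0.0404) and was lost without each of the other 4 arrays (adjusted p from 0.0696 to 0.150).

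Glycam1 was already bright in the controls, at 9.46 and 9.71, and read 11.0, 12.2 and 11.7 in the cyclin D1 glands. The controls agreed within 0.25 on the log2 scale, the narrowest control range of the 5 genes, and both lay below all cyclin D1 values. Glycam1 rose 4.15-fold (log2 2.05, SE 0.37, 95% interval 1.13 to 2.97, limma adjusted p = 0.0405). Renormalized, control 1, at 10.6, lay above cyclin D1 replicate 1, at 10.5, and the difference of 0.90 did not pass (95% interval -0.16 to 1.95, adjusted p = 0.327).

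B4galt1, the catalytic part of lactose synthase, read 3.70 and 5.43 in controls 1 and 2, against 7.87, 9.55 and 8.43 in the cyclin D1 glands. As for Wap, cyclin D1 replicate 2 was highest and control 1 lowest, with no overlap between the groups. It rose 16.6-fold (log2 4.05, SE 0.69, 95% interval 2.32 to 5.78, limma adjusted p = 0.0369), from 4.57 ± 1.22 (SD, n = 2) to 8.62 ± 0.86 (SD, n = 3). Renormalized it differed by 2.69 (adjusted p = 0.130). Alpha-lactalbumin, the other part of lactose synthase, could not be measured on its own. The probe set annotated to both Lalba and Trip12, a ubiquitin ligase gene, read 2.20 and 3.21 in the controls and 8.03, 8.46 and 6.61 in the cyclin D1 glands. It lay below the floor in control 1 and far above it in every cyclin D1 gland. A probe set of Trip12 alone read 4.05 and 5.27 against 6.54, 6.67 and 6.30. Which of the pair of transcripts the shared probe set reads was not tested, and its values are given to neither gene.

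Ugp2, the source of UDP-glucose, read 3.92 and 4.76 in the control glands, against 7.14, 6.95 and 6.01 in cyclin D1 replicates 1, 2 and 3. Replicate 3 was the lowest of the cyclin D1 glands, and the groups did not overlap. Ugp2 rose 5.15-fold (log2 2.36, SE 0.43, 95% interval 1.29 to 3.44, limma adjusted p = 0.0417). The renormalized difference of 0.95 had an adjusted p = 0.179. The calls of B4galt1, Glycam1 and Ugp2 were each lost without any 1 of the 5 arrays (adjusted p from 0.0511 to 0.174), with differences from 1.77 to 4.91.

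**Figure D2:**
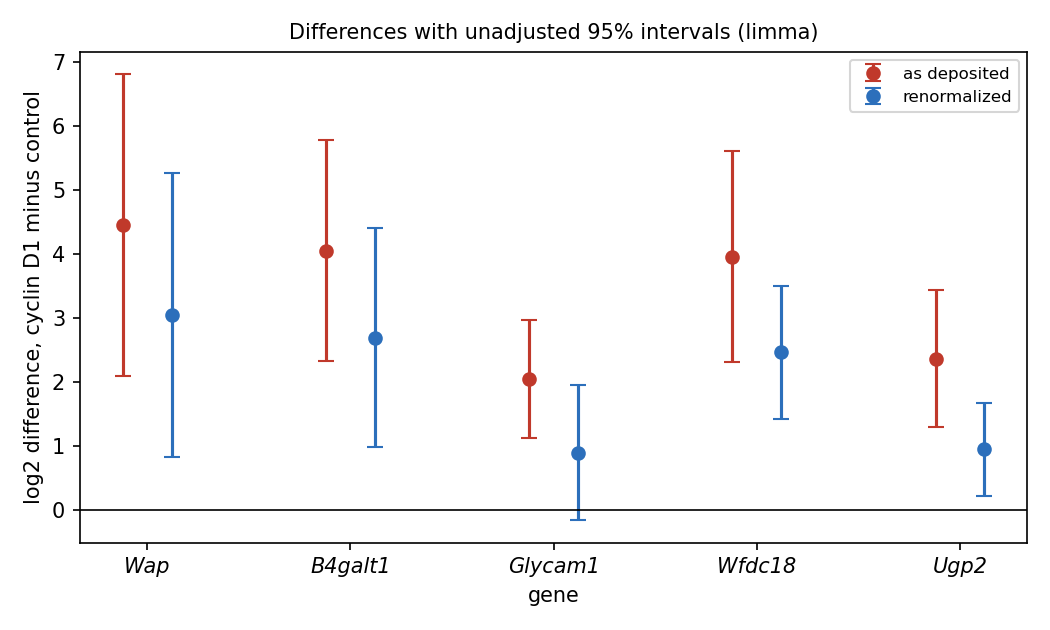
Log2 difference, cyclin D1 minus control (vertical axis), of the 5 genes with unadjusted 95% intervals from limma, as deposited in red and renormalized in blue. Every difference is above 0, each renormalized value is smaller, and the renormalized interval of Glycam1, -0.16 to 1.95, includes 0.

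The rank of a gene among the 19938 genes of its own array does not depend on the spread of the array and was used to follow each gene from array to array. Wap ranked 457 and 194 in controls 1 and 2 and 35, 3 and 47 in the cyclin D1 glands. B4galt1 ranked 2285 and 471 against 194, 40 and 87, and Wfdc18 ranked 100 and 51 against 6, 6 and 16. For these genes every cyclin D1 gland ranked higher than both controls, and so it did for Ugp2 (1540 and 945 against 352, 464 and 722). Glycam1 ranked 10 and 14 in the controls and 11, 1 and 3 in the cyclin D1 glands, so that its ranks overlapped. Renormalized values follow the same order as the ranks, so these 4 of 5 genes are the same 4 as after renormalization, beside the same 20.1% of all genes and 33.6% of the brightest decile.

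**Figure D3:**
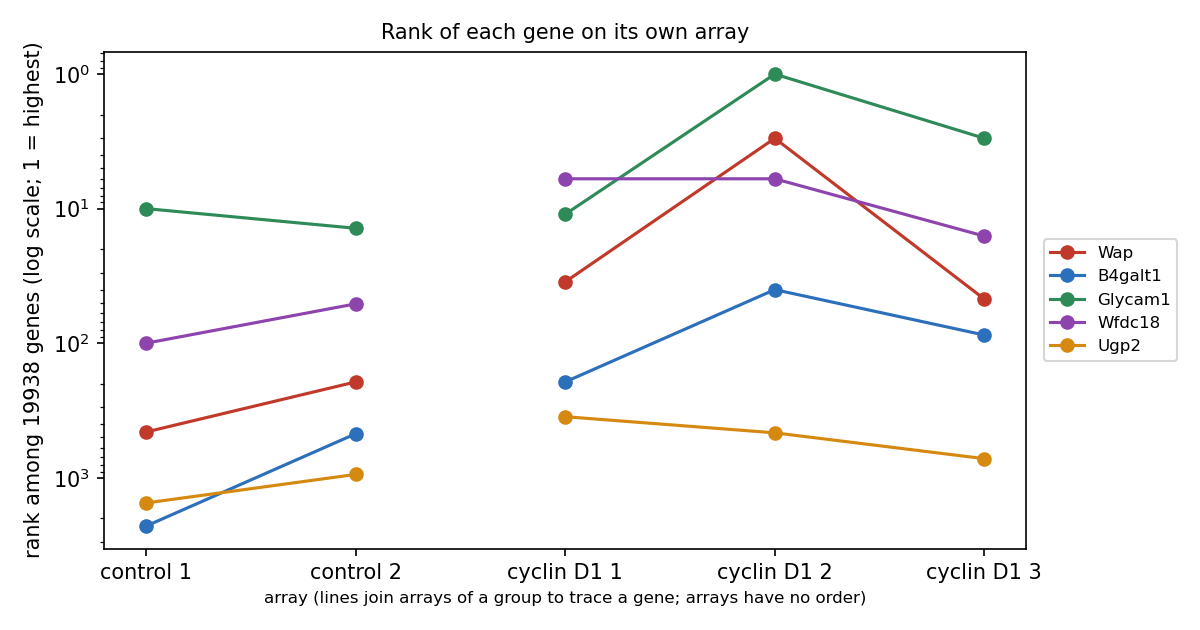
Rank of each gene among the 19938 genes (vertical axis, log scale, 1 at the top) on each array (horizontal axis); lines join the arrays of a group to trace a gene and carry no order. Wap moves from 457 and 194 to between 3 and 47, while Glycam1 lies among the first 14 genes on every array.

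Of 18 listed genes that supply lactose synthesis, 15 were measured, 2 rose and 0 fell (5.38% of all genes were called higher), with a median log2 difference of 0.30 (-0.05 over all genes). After renormalization 0 passed and the median was 0.12. Tmem165, a Golgi protein of manganese and calcium balance, read 4.19 and 4.75 in the controls and 7.52, 8.35 and 7.43 in the cyclin D1 glands, and rose by 3.30 log2 units (SE 0.34, limma adjusted p = 0.0171; 1.71 renormalized, adjusted p = 0.0537). Slc5a1, the sodium-glucose cotransporter, rose by 0.91 (SE 0.18, adjusted p = 0.0484) from 2.68 and 3.00 to 3.57, 3.77 and 3.90. Atp2c1, the Golgi calcium and manganese pump, read 3.03 and 4.34 against 6.10, 7.00 and 5.71, and its difference of 2.59 did not pass (adjusted p = 0.0555).

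Hk1, a hexokinase, had a difference of 3.72 (adjusted p = 0.0719) on the probe set used, but its 2 probe sets disagreed, the other differing by 0.16. Slc2a1, the main glucose transporter of the gland, read 3.26 and 4.14 in the controls and 3.91, 4.47 and 4.23 in the cyclin D1 glands. Its groups overlapped, and the difference of 0.50 did not pass (adjusted p = 0.356; -0.03 renormalized). Slc35a2, which carries UDP-galactose into the Golgi, read 3.24 and 3.40 against 3.38 to 3.40, a difference of 0.07 (adjusted p = 0.764). Pgm1 and Pgm2, the phosphoglucomutases, differed by 0.03 and 0.85, and Galt, which links galactose to UDP, by 0.08, none passing. Slc2a1, Slc35a2, Pgm1, Pgm2 and Galt were chosen after their values were seen. Gpi1 and Galk1 had no probe set of their own.

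The relatives of B4galt1, galactosyltransferases of glycoproteins and glycolipids, did not pass in either direction: 0 of the 5 measured were called (B4galt2 had no probe set of its own). Their differences were -0.44 for B4galt5, -0.21 for B4galt4, -0.07 for B4galt7, 0.12 for B4galt6 and 0.24 for B4galt3. They read 2.25 to 3.68 on the 5 arrays, near the rough floor of 1.97 to 2.52. The measured members lay in the brightest decile, where the median difference was 1.59, so genes of unlike level are compared. Within each array B4galt1 stood above the mean of these 5 genes by 0.91 and 2.66 in controls 1 and 2 and by 4.99, 6.91 and 5.81 in the cyclin D1 glands. This excess was 4.12 larger in the cyclin D1 group. Of the 10 arrangements of the arrays, 1 gave a difference as large (exact permutation test, upper-tail p doubled to 0.20). No smaller p can come from this doubled test with 10 arrangements, so it cannot decide whether the groups differ. The difference of B4galt1 alone was 4.05.

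Of 21 measured genes with the whey acidic protein domain other than Wap and Wfdc18, 0 rose and 1 fell, with a median difference of -0.24. Of all genes 5.38% were called higher and 0.687% lower. Other than Wfdc17, these family genes read 1.47 to 4.05 on the 5 arrays, where the rough floor was 1.97 to 2.52. Wap and Wfdc18 lay in the brightest decile, where the median difference was 1.59, so genes of unlike level are compared. The 1 that fell, Wfdc8, lay at or below the floor on all 3 cyclin D1 arrays, and no size is given for its decrease (limma adjusted p = 0.0393). Its control mean of 2.58 was only 0.13 above the mean floor of the controls, and the floor differed between the groups by -0.38 (cyclin D1 minus control). Wfdc15b (-0.67, adjusted p = 0.0721), Wfdc1 (-0.64, adjusted p = 0.0981) and Wfdc13 (-0.42, adjusted p = 0.145) had the next smallest p and did not pass. Wfdc15b lay at or below the floor on 2 of the 3 cyclin D1 arrays. Wfdc18 lies between Wfdc17 and Wfdc21 on chromosome 11. Wfdc17 read 2.99 and 4.98 in the controls and 8.15, 6.90 and 4.55 in the cyclin D1 glands, with overlapping groups and a difference of 2.54 that did not pass (SE 1.16, adjusted p = 0.237). Wfdc21 differed by -0.02 (adjusted p = 0.947). Of the 7 genes of the lysozyme family, to which alpha-lactalbumin belongs by descent, 0 were called; Lyz2 had a difference of 1.46 (adjusted p = 0.232), and Lyzl1, Lyzl6 and Spaca5 lay at or below the floor on all cyclin D1 arrays.

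The nearest measured protein-coding genes on the chromosome were set beside the other members, a choice made after the members' values were seen. Next to Wap, Tbrg4 differed by 0.47 (limma adjusted p = 0.511) and Ramp3 by -0.26 (adjusted p = 0.530). Next to Glycam1, Ppp1r1a differed by 0.01 without passing, and Mucl2 lay at or below the floor on all 5 arrays. Next to B4galt1, the splicing gene Smu1 rose by 1.76 (adjusted p = 0.0395; 1.49 renormalized, adjusted p = 0.105), while Spink4 differed by -0.11. Next to Ugp2, Vps54 differed by 2.04 (adjusted p = 0.0751) and the malate dehydrogenase gene Mdh1 by 2.92 (adjusted p = 0.0854), with all cyclin D1 values above both controls in each.

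**Figure D4:**
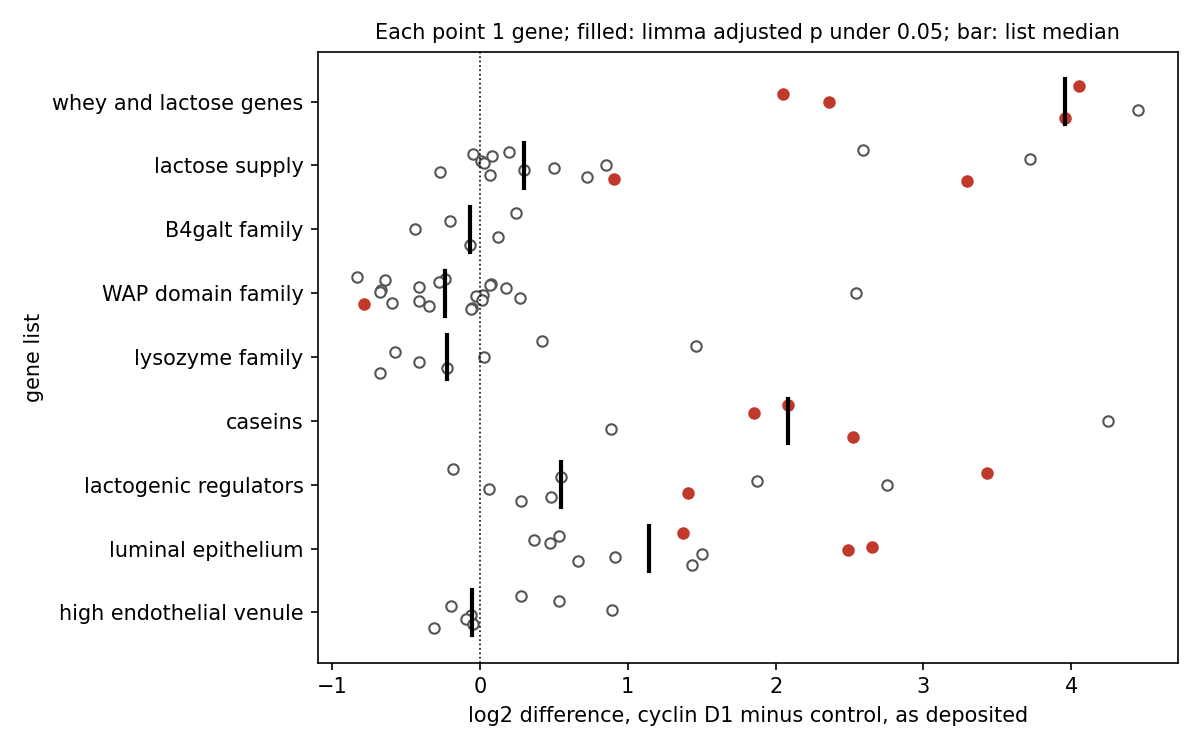
Log2 difference, cyclin D1 minus control, as deposited (horizontal axis), of each measured gene in 9 lists (vertical axis); filled points passed limma at an adjusted p under 0.05 and bars are list medians. The whey and lactose genes lie from 2.05 to 4.45, whereas the B4galt relatives lie from -0.44 to 0.24. These relatives read 2.25 to 3.68 on the 5 arrays, near the rough floor, while the measured members are in the brightest decile. The genes of the WAP domain family other than Wfdc17 also read low, at 1.47 to 4.05.

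The genes most like each member in pattern were those with the smallest mean absolute difference of gene-centred log2 values over the 5 arrays. For Wap they were Lao1, an amino acid oxidase (0.17), Slc28a3, a nucleoside transporter (0.37), and Fth1, ferritin heavy chain (0.38). Lao1 followed Wap on every array, at 3.52 and 4.92 in the controls and 7.79, 9.85 and 7.31 in the cyclin D1 glands. Wfdc18 was nearest to Fth1 (0.18), the mitochondrial chaperone gene Hspa9 (0.21) and the clathrin heavy chain gene Cltc (0.24). B4galt1 was nearest to the endocytic adaptor gene Dab2 (0.23), Tc2n (0.28) and Cltc (0.28). Ugp2 was nearest to the proteasome gene Psma1 (0.06), the integrin gene Itgb1 (0.08) and BC005537 (0.09), and Glycam1 to the integrin gene Itga6 (0.08), Neo1 (0.09) and Nfatc3 (0.13). Between members the smallest distance was that of Wfdc18 and B4galt1 (0.45) and the largest that of Wap and Glycam1 (1.24).

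Of the 5 casein genes, the micellar proteins of milk, 3 rose, with a median difference of 2.08 (0.98 renormalized, where 0 passed). Of all genes 5.38% were called higher, and of the brightest decile 35.9%, with a median difference of 1.59 in that decile. Csn3, Csn1s2a and Csn1s1 rose by 2.52, 1.85 and 2.08 (limma adjusted p = 0.0147, 0.0226 and 0.0283), and Csn1s2b (4.25, adjusted p = 0.0963) and Csn2 (0.89, adjusted p = 0.153; -0.09 renormalized) did not pass. Relative to the mean of the 5 caseins on the same array, Wap lay at -3.60 and -2.48 in the control glands, against -1.68, 0.48 and -1.53 in the cyclin D1 glands. Ugp2 lay at -4.40 and -4.19 in the controls, against -4.06, -4.22 and -4.47 in the cyclin D1 glands, and Glycam1 at 1.15 and 0.77 against -0.20, 1.04 and 1.24. B4galt1 lay at -4.61 and -3.52 in the controls, against -3.33, -1.61 and -2.05 in the cyclin D1 glands. Wfdc18 lay at -2.19 and -0.96 against 0.10, 0.35 and -0.26. For Wap, B4galt1 and Wfdc18 the groups remained apart on this scale, and for Ugp2 and Glycam1 they overlapped.

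Genes of the lactogenic response were mixed. Of 9 measured, 2 rose and 0 fell (5.38% of all genes were called higher), with a median difference of 0.55 (-0.06 renormalized, where 0 passed). Elf5, a transcription factor of alveolar differentiation, rose by 3.43 (SE 0.39, limma adjusted p = 0.0192; 2.58 renormalized, adjusted p = 0.0630), from 2.94 and 3.89 to 6.64, 7.39 and 6.52. Nr3c1, the glucocorticoid receptor gene, rose by 1.41 (adjusted p = 0.0385), but the renormalized value of -0.06 had the opposite sign. Jak2, the kinase of the prolactin receptor (1.87, adjusted p = 0.0873), and Nfib of the nuclear factor I family (2.75, adjusted p = 0.108) did not pass. Stat5a, which carries the prolactin signal to milk genes and was chosen after its values were seen, read 3.99 and 4.74 against 4.61, 4.74 and 5.20, with overlapping groups and a difference of 0.48 (adjusted p = 0.348; -0.66 renormalized). Prlr, the prolactin receptor gene, had no probe set of its own.

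Markers of the gland's cell types were read on the same arrays. The caseins, the luminal keratin genes Krt8 and Krt18 and the 9 adipocyte genes, markers of the labelled tissue, read above the rough floor on every array. Of the 10 luminal epithelial markers all 10 had positive differences and 3 rose: Ehf by 2.65, Epcam by 2.49 and Cdh1 by 1.37 (limma adjusted p = 0.0168, 0.0184 and 0.0228), while Esrp1 (1.499) did not pass. Over all genes 8834 of 19938 differences were positive and 5.38% were called higher. After renormalization 0 of the 10 passed, with a median difference of 0.46. Krt18, picked here after its values were seen, then had a difference of -0.55, while the others stayed positive. The summed linear level of the luminal markers was 119 and 139 in the controls and 366 to 423 in the cyclin D1 glands. Over all genes the summed level also differed, at 198198 and 244371 in the controls and 349495 to 413229 in the cyclin D1 glands. With the mean of these 10 markers subtracted on each array, an alternative added after the data were seen, the differences of Wap, B4galt1, Wfdc18, Ugp2 and Glycam1 were 3.21, 2.81, 2.71, 1.12 and 0.81. On that scale Wap lay at 1.32 and 2.77 in the control glands, against 4.67, 6.79 and 4.31 in the cyclin D1 glands, still without overlap. The marker mean itself read 3.39 and 3.69 in the controls and 4.64 to 4.85 in the cyclin D1 glands. The median difference of the markers was 1.14, against 1.59 in the brightest decile, which holds the members, so genes of unlike level are compared.

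Of 8 high endothelial venule markers, which bear on Glycam1, 0 passed and the median difference was -0.05, with a summed level of 53.4 and 72.2 in the controls and 66.1 to 85.8 in the cyclin D1 glands. Emcn (0.89), Cd34 (0.53), Chst4 (-0.19) and Ackr1, which lay at or below the floor in both controls, had the smallest p. In Emcn and Cd34 all cyclin D1 values lay above both controls, as they did in 22.4% of all genes. Other than Emcn, the venule markers read 2.15 to 4.01 on the 5 arrays, where the rough floor was 1.97 to 2.52. Glycam1 read 9.46 to 12.2, so genes of unlike level are compared. Of 8 measured lymphocyte markers 0 passed, and their summed level overlapped, at 76.6 to 98.3 in the controls and 57.2 to 117 in the cyclin D1 glands. Among myoepithelial markers 1 of 8 rose (Acta2, by 2.48, adjusted p = 0.0349), beside 5.38% of all genes. Of the 8 differences 4 were positive, with a median of 0.22 as deposited and -0.0044 renormalized. Their summed level was 76.9 and 110 in the controls and 173 to 329 in the cyclin D1 glands, where the sum over all genes was higher too. Of 9 adipocyte, 7 fibroblast, 5 endothelial, 6 leukocyte and 5 skeletal muscle markers 0 passed, and the summed level of the adipocyte genes was 1088 and 1281 in the controls and 704 to 2673 in the cyclin D1 glands. The part of cell composition in the differences of the whey and lactose genes was not tested.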

How the data were processed

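Gene expression was measured on 1 array per mouse, 5 in all, grouped by sample title; the design text says the mice were separate animals. The deposited values are log2 expression per probe set, made by the authors with RMA in Affymetrix Expression Console 1.1 (per the submitters' processing notes). The log base was inferred from the range of the values. Detection calls and raw intensities were not used here, so presence above background is not known. Precision is limited by the number of arrays.

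Of 35556 probe sets, 21789 were annotated to 1 gene symbol, 1621 to several and 12146 to none; those annotated to several were not assigned to a gene. The highest-mean probe set of each symbol gave 19938 genes. Each of the 5 measured members had 1 such probe set. Entrez identifiers of 21698 probe sets matched the GRCm38.p6 RefSeq table, and 0 symbols changed.

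The comparison used lmFit and eBayes of limma 3.58.1 (R 4.3.3; 3 residual and 2.39 prior degrees of freedom, two-sided), with Benjamini-Hochberg adjustment over all genes and a threshold of 0.05, and the fit was tested on simulated data. Adjusted p-values come from this fit unless a renormalized value or a left-out array is named; with 1 control left the lone array is assumed to vary like the others. Intervals are unadjusted 95% intervals. Named are the members, in the lists around them the 4 genes with the smallest p (all of lists with at most 6), and the 3 genes nearest in pattern to each member, without predicted, small RNA and receptor-family genes; of the marker lists only luminal, venule and the called myoepithelial genes are named. Any other name is marked as chosen with its values known. The members and the 15 lists around them were chosen with earlier results of these data known. Summed levels are sums of values taken out of the log2 scale. Promoter sequences are RefSeq's, GRCm38.p6, without the 50 bases after the start.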

Additional observations from a re-analysis of the deposited data

How the results depend on the processing

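The 5 members kept positive differences in all 18 alternative fits fixed at the outset. Among these, an intensity trend, a robust prior and a filter on dim genes leave a difference as it is and can change only its p. The same holds for the mean of probe sets, since each measured member has 1 probe set. As deposited, 1072 genes were higher and 137 lower. Renormalized, the counts were 51 and 21, and B4galt1, Glycam1, Wfdc18 and Ugp2 no longer passed, at 2.688, 0.8981, 2.463 and 0.9475 on the log2 scale. With array weights the counts were 263 and 4, and these genes, at 3.892, 1.89, 4.107 and 2.541, did not pass; with an intensity trend 622 genes were higher, and Glycam1 (2.052, adjusted p = 0.0758) and Ugp2 (2.364, adjusted p = 0.0561) did not pass. The replicate numbers do not pair these mice by the labels, and deviations of same-numbered arrays correlated at -0.03 and 0.13 across genes. With the replicate number as a block, cyclin D1 replicate 3 has no control of its number, so it does not enter the differences. In that fit Wap passed (4.999, limma adjusted p = 0.0270), 1137 genes were higher and 10 lower, and no other call among the members changed. Without cyclin D1 replicate 3 and without a block, Wap had the same 4.999 and did not pass (adjusted p = 0.0933). Leaving out 1 array gave 0 to 1365 higher and 0 to 1063 lower genes, and differences of 3.578 to 5.329 for Wap (never passing), 3.189 to 4.912 for B4galt1, 1.769 to 2.374 for Glycam1, 3.027 to 4.886 for Wfdc18 and 1.944 to 2.784 for Ugp2. Renormalized and without 1 array, the counts were 0 to 2221 and 0 to 3154, and the differences were 2.175 to 3.593, 1.854 to 3.58, 0.6233 to 1.322, 2.068 to 2.789 and 0.7281 to 1.247 in the same order. Within these ranges, the renormalized counts without control 1 were 555 higher and 894 lower, with 1.05 for Glycam1, and without control 2 Glycam1 was at 0.6392, while B4galt1, Wfdc18 and Ugp2 passed. Without cyclin D1 replicate 1 B4galt1, Wfdc18 and Ugp2 were at 3.082, 2.342 and 0.7366, without replicate 2 at 2.229, 2.333 and 0.8899, and without replicate 3 B4galt1, Glycam1 and Ugp2 were at 2.657, 0.8861 and 1.114, none passing. Median centring, a robust prior, a filter on dim genes and the mean of probe sets changed no call among the members. In alternatives chosen after seeing the data and given without a test, subtracting the luminal marker mean left 2.809 for B4galt1, 0.8105 for Glycam1, 2.715 for Wfdc18 and 1.123 for Ugp2, and subtracting the casein mean left 2.136 for Wap, 1.732 for B4galt1, 1.639 for Wfdc18, 0.04582 for Ugp2 and -0.2662 for Glycam1, which turned. The cause of these changes was not tested.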
